A study of Mus musculus with 8 samples.

Results

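Myelin is built from a small set of proteins and lipids, and 9 genes that make them were followed here in sorted medulloblastoma cells: Cnp, Ugt8a, Mbp, Mag, Cldn11, Mog, Mobp, Mal and Ermn. The genes were chosen by name, as established myelin genes, and each was found among the 22180 genes measured. Each was represented by 1 probe set that the platform annotation assigns to that gene alone. They were separated by textbook knowledge into 2 early genes, Cnp and Ugt8a, which oligodendrocytes switch on before they wrap axons, and 7 late genes, which come with or after wrapping. Within the late genes the order is gradual, since Mbp, Mag and Cldn11 start before Mog, Mobp, Mal and Ermn.

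The cells came from medulloblastomas, tumours of the cerebellum, of mice heterozygous for Patched1 (Patched1+/-, CD1 background) that also carried the Sox2eGFP reporter from B6 parents. Every mouse was irradiated with 3 Gy as a newborn, and tumours were dissected when signs of disease showed, past 70 days of age. White blood cells (CD45) and red blood cells (Ter119) were depleted, and eGFP fluorescence then divided the remaining cells into the Sox2-positive and Sox2-negative fractions. Both fractions share the Patched1 allele, the reporter and the radiation. There were 4 arrays of each fraction, and each array held pooled RNA of sorted cells from 3 tumours, so 1 value is an average over 3 animals' tumours. The fractions are defined by the reporter's fluorescence and not by cell type.

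Oligodendrocytes arise from progenitors that first stop dividing, then pass through a premyelinating stage with branched processes, and only then wrap axons in compact myelin. Enzymes of the process and of myelin lipid synthesis appear at the premyelinating stage, while proteins of the finished sheath, such as Mog on its outer surface, appear last. In the cerebellum this lineage supplies the white matter, separate from the granule neuron lineage in which these tumours arise.

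Of the 9 genes, 4 rose in the Sox2-positive cells at an adjusted p under 0.05 (Cnp, Ugt8a, Cldn11 and Mbp), 0 fell and 5 did not pass the test. Over all genes measured, 5.96% were called higher and 2.52% lower in the same limma fit. Both early genes were called, and 2 of the 7 late genes were. Without Sox2-positive pool 4 the early genes alone were called. The values are log2 values of an array, and each difference is Sox2-positive minus Sox2-negative on that log2 scale. The median difference was 1.71 over the early genes and 0.17 over the late genes, beside -0.03 over all genes. In sorted bulk RNA, fewer cells of a type and less RNA per cell cannot be told apart. The 4 called genes were also those whose groups did not overlap, with every Sox2-positive array above every Sox2-negative array, which held for 7.63% of all genes.

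**Figure D1:**
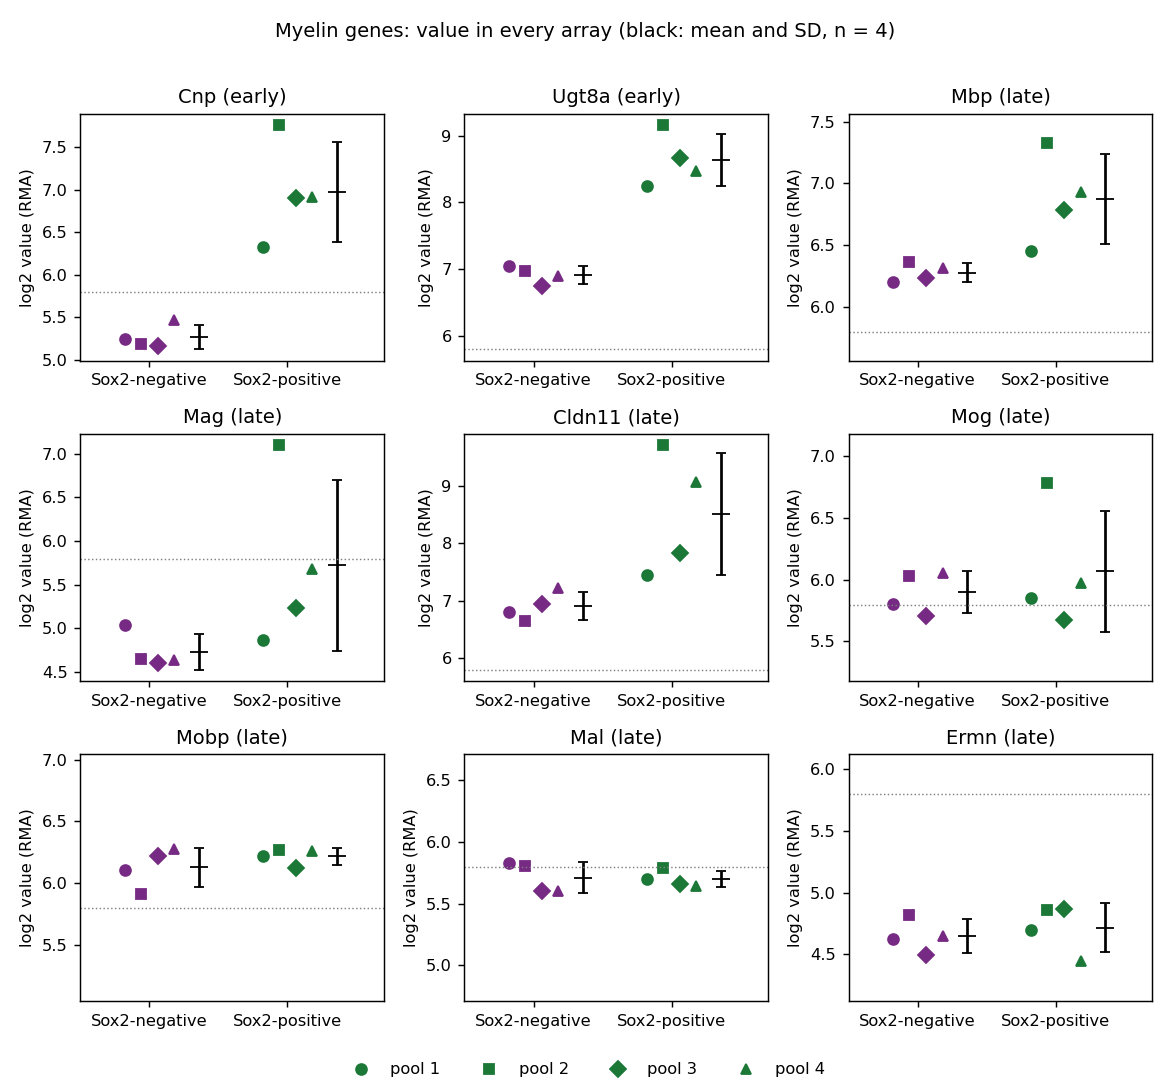
Log2 value (vertical axis) of the 9 myelin genes in every array, with 1 symbol per pool, purple for Sox2-negative and green for Sox2-positive cells; black bars give the mean and SD (n = 4) and the dotted line is 5.80, the upper quartile of olfactory and vomeronasal receptor genes, a guide to dim values. Cnp, Ugt8a, Cldn11 and Mbp separate the fractions, and pool 2 (square) is the highest Sox2-positive array for each gene except Ermn.

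Cnp encodes a phosphodiesterase of the cytoplasmic channels of myelin. Its log2 values in Sox2-positive pools 1 to 4 were 6.32, 7.76, 6.90 and 6.91. In Sox2-negative pools 1 to 4 they were 5.24, 5.18, 5.16 and 5.47. The lowest Sox2-positive pool thus lay above the highest Sox2-negative pool, and the Sox2-positive pools were the more spread. Cnp was 3.27-fold higher (means 6.97 ± 0.59 against 5.26 ± 0.14, SD, n = 4; log2 difference 1.71, SE 0.22; limma adjusted p = 0.000178). The Sox2-negative values all lay below 5.80, the upper quartile of 1390 olfactory and vomeronasal receptor genes that these cells are not known to use, so the fold may be understated.

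Ugt8a encodes the enzyme that joins galactose to ceramide and so makes galactosylceramide, the main glycolipid of myelin. It measured 8.24, 9.16, 8.66 and 8.47 in Sox2-positive pools 1 to 4. It measured 7.05, 6.97, 6.74 and 6.89 in the Sox2-negative pools of the same numbers. The groups were further apart than the spread within either of them. Ugt8a was 3.29-fold higher (95% interval 2.60 to 4.17; log2 difference 1.72, SE 0.16; limma adjusted p = 1.00e-05). The calls of Cnp and Ugt8a held in all 15 alternatives run for each (adjusted p at most 0.00113 and 8.90e-05).

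Cldn11, a claudin whose strands seal the spaces between myelin wraps, was the late gene with the largest difference. Its Sox2-positive pools 1 to 4 stood at 7.44, 9.71, 7.82 and 9.06. Its Sox2-negative pools stood at 6.81, 6.65, 6.94 and 7.22. Pools 2 and 4 were high among the Sox2-positive arrays, while pool 1 lay close to the highest Sox2-negative array. Cldn11 was 3.04-fold higher with a wide interval (1.74 to 5.31; log2 difference 1.60, SE 0.37; limma adjusted p = 0.0158). The call ended without Sox2-positive pool 4 (adjusted p = 0.0523) and with a robust variance estimate (0.0972).

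Mbp encodes myelin basic protein, which pulls the inner faces of the myelin membrane together. Sox2-positive pools 1 to 4 measured 6.45, 7.33, 6.78 and 6.93. Sox2-negative pools 1 to 4 measured 6.20, 6.36, 6.23 and 6.31. The groups did not overlap, but only 0.09 separated the lowest Sox2-positive from the highest Sox2-negative array. Mbp was 1.51-fold higher (log2 difference 0.60, SE 0.15; limma adjusted p = 0.0214), a smaller difference than those of Cnp, Ugt8a and Cldn11. The call ended without Sox2-positive pool 4 (adjusted p = 0.0581) or Sox2-negative pool 1 (0.0674).

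Mag encodes a sialic acid-binding adhesion protein of the innermost wrap, next to the axon. It measured 4.87, 7.10, 5.23 and 5.68 in Sox2-positive pools 1 to 4. It measured 5.04, 4.65, 4.60 and 4.63 in Sox2-negative pools 1 to 4. Sox2-positive pool 2 alone among the 8 arrays lay above 5.80, and Sox2-positive pool 1 lay below Sox2-negative pool 1. The log2 difference was 0.99 with an unadjusted 95% interval of 0.24 to 1.73, and it did not pass after adjustment (limma adjusted p = 0.109). Without Sox2-positive pool 1 it passed, at a log2 difference of 1.27 (adjusted p = 0.0274), and without pool 2 the difference was 0.53 (adjusted p = 0.11).

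Mog, the glycoprotein on the outermost surface of the sheath, showed the same high array with less of a difference elsewhere. It measured 5.85, 6.78, 5.67 and 5.97 in the Sox2-positive and 5.81, 6.03, 5.71 and 6.05 in the Sox2-negative pools 1 to 4. The other 3 Sox2-positive pools lay within or just below the range of the Sox2-negative pools. The log2 difference was 0.17 (95% interval -0.24 to 0.58, limma adjusted p = 0.689), and without Sox2-positive pool 2 it was -0.07 (adjusted p = 0.863).

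Mobp, Mal and Ermn varied little across the 8 arrays. Mobp, a small basic protein of compact myelin, lay between 6.12 and 6.27 in Sox2-positive and between 5.91 and 6.28 in Sox2-negative cells. Its log2 difference was 0.09 (fold interval 0.92 to 1.23), at values not far above 5.80. Mal, a proteolipid that sorts myelin membrane, lay between 5.65 and 5.79 against 5.60 to 5.83, with a log2 difference of -0.01 (fold interval 0.87 to 1.14). Ermn, which encodes the actin-binding protein ermin of late oligodendrocytes, lay between 4.44 and 4.87 against 4.49 to 4.82, with a log2 difference of 0.07 (fold interval 0.89 to 1.24). The group means of Mal and Ermn were below 5.80 in both fractions. At such dim values a difference may be understated. Whether the differences of early and late genes differ from each other was not tested as such.

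**Figure D2:**
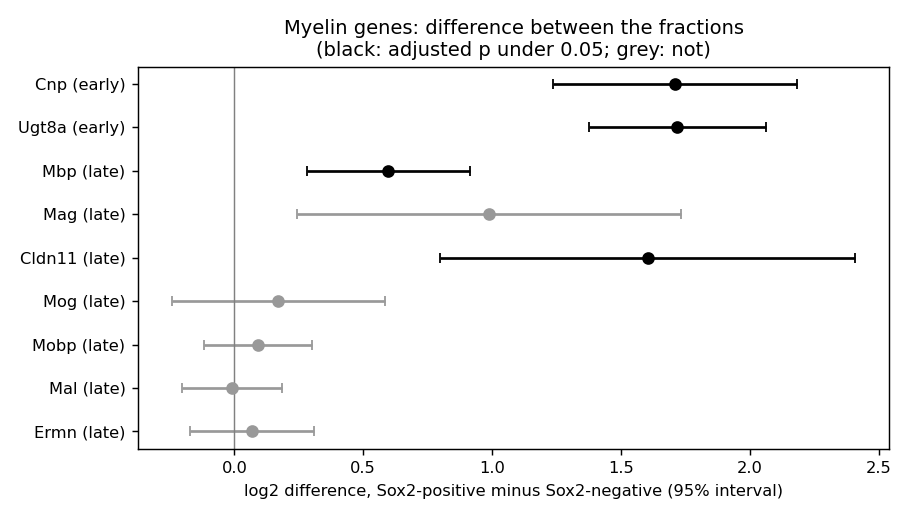
Log2 difference (horizontal axis, Sox2-positive minus Sox2-negative) of each myelin gene with its unadjusted 95% interval from the limma fit, n = 4 arrays per fraction. Cnp and Ugt8a lie at 1.71 and 1.72, Cldn11 at 1.60 with the widest interval, and Mog, Mobp, Mal and Ermn have intervals that include 0.

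The sequence before the start sites was read for words of factors of this lineage. Promoters of 8 of the 9 genes were found in the RefSeq table of GRCm38.p6, and the 250 bases before the start are shown for the early genes and for Cldn11 and Mag, the late genes with the largest differences. Capitals mark words searched on both strands. The SOX core was taken as ACAAAG, and a second form of that core was ACAATG. The word of Myrf, the transcription factor of myelination, was CTGGCAC, a form of its reported site. The E-box, of the kind bound by Olig factors, was CAGCTG. The GC box was GGGCGG, and the TATA box was searched as TATAAA. The windows are chr11:100574689-100574938 (plus strand) for Cnp, chr3:125938653-125938902 (minus strand) for Ugt8a, chr3:31149670-31149919 (plus strand) for Cldn11 and chr7:30914923-30915172 (minus strand) for the outermost of 3 starts of Mag.
Cnp: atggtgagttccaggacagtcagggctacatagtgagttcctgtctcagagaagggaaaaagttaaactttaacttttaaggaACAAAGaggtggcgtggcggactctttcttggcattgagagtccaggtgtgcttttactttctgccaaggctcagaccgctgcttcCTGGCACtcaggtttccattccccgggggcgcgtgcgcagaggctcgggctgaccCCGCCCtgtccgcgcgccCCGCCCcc
Ugt8a: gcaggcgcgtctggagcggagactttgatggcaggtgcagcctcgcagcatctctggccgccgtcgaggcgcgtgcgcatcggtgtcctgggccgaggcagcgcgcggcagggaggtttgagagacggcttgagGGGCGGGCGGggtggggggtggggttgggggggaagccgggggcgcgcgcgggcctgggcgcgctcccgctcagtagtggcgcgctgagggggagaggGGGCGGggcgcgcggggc
Cldn11: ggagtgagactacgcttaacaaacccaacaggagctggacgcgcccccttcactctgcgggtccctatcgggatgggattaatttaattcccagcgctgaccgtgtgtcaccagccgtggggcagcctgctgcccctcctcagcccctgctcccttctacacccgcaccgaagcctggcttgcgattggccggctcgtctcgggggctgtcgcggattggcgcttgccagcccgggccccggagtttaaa
Mag: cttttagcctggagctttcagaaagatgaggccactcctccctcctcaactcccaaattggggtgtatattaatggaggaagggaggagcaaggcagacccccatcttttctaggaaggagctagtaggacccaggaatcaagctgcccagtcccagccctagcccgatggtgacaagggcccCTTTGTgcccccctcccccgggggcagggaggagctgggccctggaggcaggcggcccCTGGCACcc

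The word CTGGCAC was found before the starts of 2 of the 8 genes. It lay 81 to 75 bases before the start of Cnp and 9 to 3 bases before the outermost start of Mag. Before the next start of Mag the same word lay at 68 to 62 bases, and the innermost start had none. The windows of Cnp and Ugt8a do not end at the outermost start of the gene. Over all 32851 promoters of that length in the table, 4.19% held it. The myelin genes were counted by gene, over any of its starts, while the shares over all promoters are by promoter. A SOX core was found before Cnp, Mag, Mobp and Ermn, of which Mobp, whose values varied little, had 6. Of all promoters, 25.2% held a SOX core. GC boxes were found before Cnp and Ugt8a (32.7% of all promoters), and 2 of the 3 in Ugt8a overlapped each other. The E-box and the TATA box were found in none of the 8 (13.0% and 12.4% of all promoters). The window of Cldn11 held none of the words. These matches are letters in a window and say nothing of binding.

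The Sox2-positive pools differed from each other more than the Sox2-negative pools did for 7 of the 9 myelin genes, and 1 pool led. The exceptions were Mobp and Mal. This count was not made over all genes, so it is not shown to be a trait of the myelin genes. Sox2-positive pool 2 held the highest Sox2-positive value of 8 of the 9 genes. Over all genes that pool was the highest in 23.6%, and among genes called higher in Sox2-positive cells in 46.6%. Against the mean of the other 3 Sox2-positive pools, it was 3.57-fold higher for Mag, 3.03-fold for Cldn11, 2.07-fold for Cnp, 1.93-fold for Mog, 1.62-fold for Ugt8a and 1.52-fold for Mbp. For Mobp, Mal and Ermn the same ratio was 1.05, 1.09 and 1.14. The Sox2-negative array numbered 2 held the lowest Sox2-negative value of Cldn11 (6.65) and the highest of Mbp (6.36). Without Sox2-positive pool 2, the same 4 genes kept their calls, at log2 differences of 1.45 (Cnp), 1.54 (Ugt8a), 1.20 (Cldn11, limma adjusted p = 0.0278) and 0.45 (Mbp, adjusted p = 0.0468).

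Genes of the premyelinating stage were highest in that same pool. The mean log2 value of 14 such genes was 7.77 in Sox2-positive pool 2, against 6.88, 7.08 and 7.16 in pools 1, 3 and 4, and pool 2 was the highest for 12 of the 14. Enpp6, an enzyme made as progenitors begin to differentiate, measured 5.70, 7.67, 5.93 and 6.46 in Sox2-positive pools 1 to 4. Myrf measured 6.67, 8.18, 6.76 and 7.21. The rank order of the Sox2-positive pools was 2, 4, 3 and 1 for 4 of the 9 myelin genes (Cnp, Mbp, Mag and Cldn11) and for 5 of the 14 premyelinating genes, as for Myrf. It was another order for the other genes, such as 2, 3, 4 and 1 for Ugt8a. Over all genes 3.53% had the first of these orders, and 8.48% of the genes called higher did; the order was picked after the values were seen. Without pool 2 the log2 differences of Enpp6 and Myrf fell to 0.77 and 0.55, and both kept their calls. For 19 genes of mature oligodendrocytes outside the 9, pool 2 (6.14) and pool 3 (6.15) were close. For markers of other cell types, the mean log2 value in pool 2 differed from that of the other Sox2-positive pools by -0.11 for astrocytes, -0.10 for neurons, -0.04 for microglia, -0.0022 for endothelial cells and pericytes, 0.04 for Schwann cells and 0.04 for the 1 red blood cell marker. For premyelinating genes the same difference was 0.73. Pool 2 also lay higher for other lists of the lineage, by 0.38 for progenitor genes and 0.38 for regulators of differentiation. The difference was 0.27 for enzymes of myelin lipids, 0.22 for other sheath and node proteins and 0.12 for the 19 mature genes. The lead of pool 2 was thus not limited to the premyelinating stage.

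**Figure D3:**
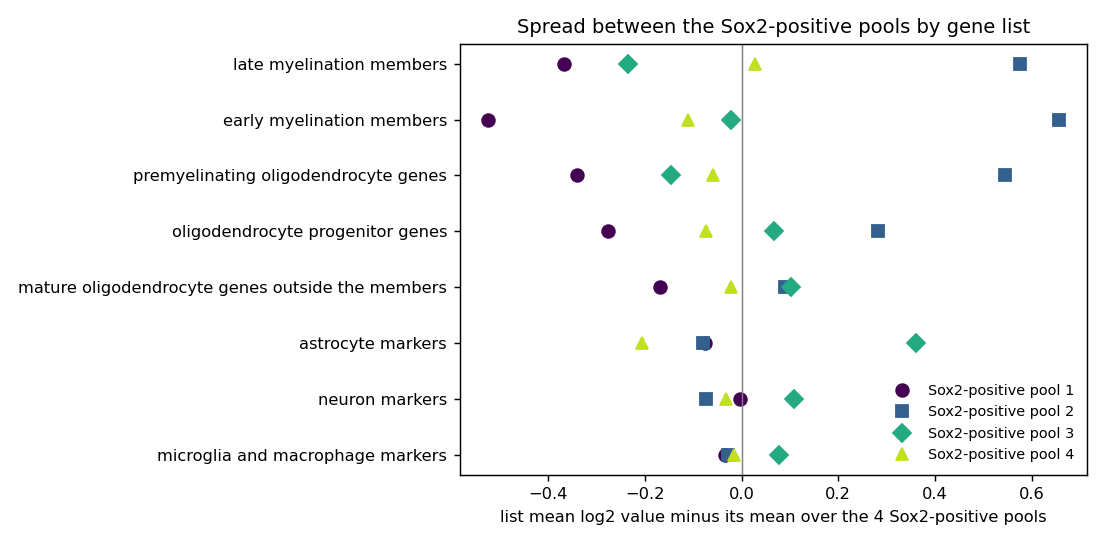
Mean log2 value of each gene list in a Sox2-positive pool minus its mean over the 4 Sox2-positive pools (horizontal axis), with 1 symbol and colour per pool. Pool 2 lies to the right for myelin, premyelinating and progenitor genes, and pool 3 for astrocyte markers.

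Premyelinating oligodendrocyte genes rose with the early myelin genes. Of 14, 11 rose and 0 fell, beside 5.96% called higher and 2.52% lower over all genes. Their median log2 difference was 0.98, beside -0.03 over all genes. Gpr17, a receptor of cells leaving the progenitor state, was 7.73-fold higher, the deacetylase gene Sirt2 3.51-fold and Nfasc, which encodes the neurofascin adhesion proteins of nodes and paranodes, 2.47-fold. Bcas1, a marker of oligodendrocytes that have begun to myelinate, was 1.98-fold higher (limma adjusted p = 0.00191), with values of 6.87 to 7.77 in Sox2-positive and 5.97 to 6.39 in Sox2-negative cells. Enpp6 rose 2.26-fold (limma adjusted p = 0.0311). Its call was lost on leaving out any 1 of the Sox2-negative pools, or Sox2-positive pool 4 (adjusted p = 0.0553 to 0.0868) and with a robust variance estimate (0.0972). With the mean of its probe sets, Bcas1 stood at a log2 difference of 0.57 in place of 0.99. The members that did not pass were Casr, Rras2 and 9630013A20Rik, the last at an adjusted p of 0.0788 (0.0201 with the replicate block).

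Enzymes of myelin lipids other than Ugt8a also rose in part. Of 16 genes of sphingolipid and fatty acid metabolism, 8 rose and 0 fell, with a median log2 difference of 0.33. The shares over all genes were 5.96% higher and 2.52% lower. Degs1, which makes ceramide by desaturating dihydroceramide, was 2.59-fold higher (limma adjusted p = 0.000368). Fa2h, which adds the hydroxyl group of myelin's hydroxylated galactolipids, was 2.58-fold higher (adjusted p = 0.000421), at 7.34, 8.41, 7.49 and 7.42 in Sox2-positive pools 1 to 4 and between 6.07 and 6.48 in Sox2-negative pools. Fa2h and Degs1 act before Ugt8a in the making of galactosylceramide. Gltp, a glycolipid transfer protein, was 2.13-fold higher, and Psap, the precursor of the saposins that help lysosomes break down sphingolipids, was 1.81-fold higher.

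Of 20 other proteins of the myelin sheath and its nodes, 13 rose and 1 fell, with a median log2 difference of 0.62. Among all genes, 5.96% were called higher and 2.52% lower. The gap junction gene Gjc3 was 17.1-fold, Plekhb1 8.56-fold, the proteolipid gene Pllp 5.81-fold and the small heat shock protein gene Cryab 4.36-fold higher (limma adjusted p at most 4.88e-06). With the mean of its probe sets, the log2 difference of Cryab was 1.18 in place of 2.13. Pllp encodes plasmolipin, a relative of Mal, whose own difference was -0.01. The gene that fell was Cntn2, an adhesion gene that neurons of the granule lineage also express, by 1.49 on the log2 scale. It is named here after its value was seen. Opalin, a membrane protein of mature oligodendrocytes, did not pass, at 4.97 to 5.59 in Sox2-positive and 4.83 to 5.30 in Sox2-negative cells (log2 difference 0.26, adjusted p = 0.356).

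Of 19 genes of mature oligodendrocytes measured outside the 9, 4 rose and 0 fell, beside 5.96% higher and 2.52% lower over all genes. Their median log2 difference was 0.18, and 10 of the 19 were below 5.80 in both fractions. The genes that rose were Cryab, Pmp22 (2.93-fold), the carbonic anhydrase gene Car2 (2.47-fold) and the prostaglandin synthase gene Ptgds (1.71-fold, limma adjusted p = 0.0229). Each of these is also made by cells other than oligodendrocytes. Cryab and Pmp22 stand on the list of sheath and node proteins too, so the same limit holds there. Ptgds lost its call when Sox2-negative pool 2 or 3 was left out, or Sox2-positive pool 2, 3 or 4 (adjusted p = 0.0536 to 0.0823).

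**Figure D4:**
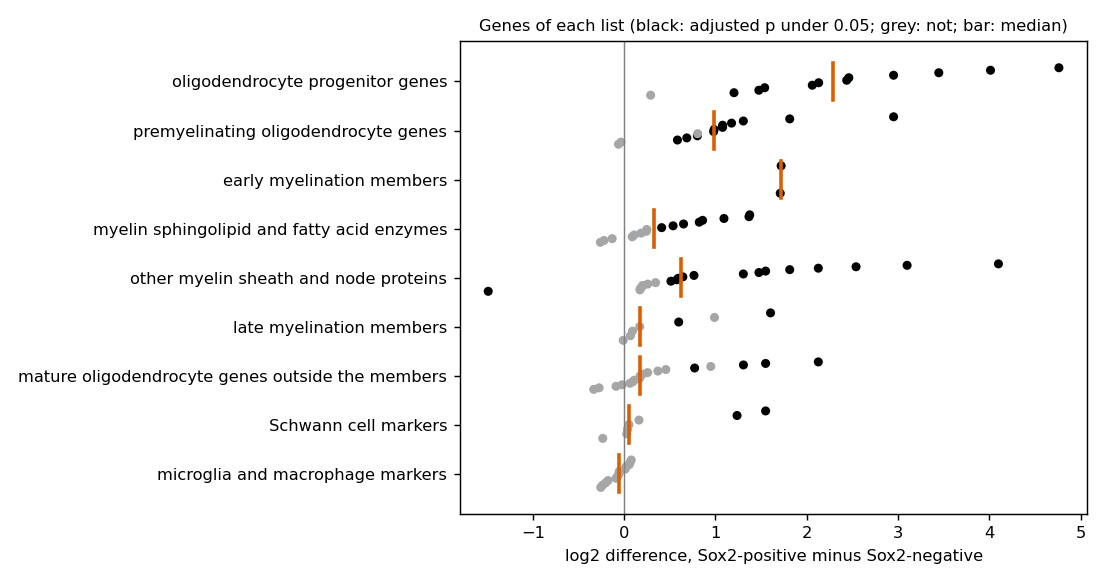
Log2 difference (horizontal axis, Sox2-positive minus Sox2-negative) of every measured gene of 9 lists, with 1 point per gene, black at an adjusted p under 0.05, and an orange bar at the list's median. The medians were 2.28 for progenitor genes, 0.98 for premyelinating genes, 1.71 for the early myelin genes, 0.33 for lipid enzymes, 0.62 for other sheath and node proteins, 0.17 for the late myelin genes, 0.18 for other mature oligodendrocyte genes, 0.05 for Schwann cell markers and -0.06 for microglia.

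Regulators of oligodendrocyte differentiation, most but not all of them transcription factors, rose for the most part, 9 of 14, while 2 fell (median log2 difference 1.01). For this list and those that follow, the shares over all genes were 5.96% higher and 2.52% lower. Sox10, which switches on myelin genes together with Myrf, measured 7.66 to 8.39 in Sox2-positive and 5.15 to 5.76 in Sox2-negative cells and was 5.42-fold higher (limma adjusted p = 3.77e-07). Myrf was 1.84-fold higher (adjusted p = 0.0452), and its call ended on leaving out any 1 of the Sox2-negative pools, or Sox2-positive pool 4 (adjusted p = 0.0666 to 0.111) and with quantile normalization (0.0531). Zfp488, a cofactor of Olig2, was 3.21-fold higher. St18 and Chd7 were the genes that fell, by 1.06 and by 0.67 on the log2 scale, and are named after their values were seen. Of 14 genes that hold differentiation back, 4 rose and 2 fell (median 0.08), with Sox6 3.03-fold, Bmp4 2.11-fold and Hes5 1.93-fold higher beside Gpr17. The second, dimmer probe set of Hes5 lowered its log2 difference to 0.44 when probe sets were averaged. Of 12 oligodendrocyte progenitor genes, 11 rose and 0 fell (median 2.28), among them Ptprz1, Olig1 and Olig2. Some genes stand on more than 1 list, Gpr17 on 3 of them.

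The genes with the most similar pattern over the 8 arrays were found by the root mean square difference between profiles, each centred on its own mean. Nearest to Mbp was Tspan2 (0.08 on the log2 scale), a tetraspanin of the oligodendrocyte lineage, followed by Tcf7l2 (0.10), a transcription factor of premyelinating oligodendrocytes, and Fermt2 (0.11). Tspan2 was 1.49-fold and Tcf7l2 1.61-fold higher in Sox2-positive cells (limma adjusted p = 0.0198 and 0.00585), and the call of Tspan2 ended without Sox2-negative pool 1 or 3 (0.0662 and 0.0552). Nearest to Cnp were Tmem108 (0.09), Dock9 (0.15) and Slc22a23 (0.16). The log2 difference of Tmem108 was 1.82, or 1.01 when its probe sets were averaged. Nearest to Ugt8a were Sema5a (0.11), Gucy1a1 (0.12) and Usp24 (0.12). Nearest to Cldn11 were Plxnb3, a plexin receptor gene, at 0.27, then Tmem108 at 0.35 and 1700047M11Rik at 0.37. These genes were picked for a pattern like that of a called member. Their differences and calls follow largely from that choice and are no separate support. The distance is not scaled to a gene's own spread, so it cannot be compared between members. Over the Sox2-positive pools Cldn11 ranged over 2.27, against 1.44 for Cnp, 0.92 for Ugt8a and 0.88 for Mbp.

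Markers of other cells that make myelin genes or could enter the sort were read beside these results. Over all genes, 5.96% were called higher and 2.52% lower. Of 7 Schwann cell markers measured, 2 rose and 0 fell (Cdh19 at 2.36-fold and Pmp22, also on the mature oligodendrocyte list), and the mean log2 value ran from 5.42 to 5.57 in Sox2-positive and from 4.99 to 5.31 in Sox2-negative cells. Egr2, the transcription factor of Schwann cell myelination, and Pmp2, a lipid-binding protein of peripheral myelin, did not pass and lay at 5.49 to 5.83 and 4.52 to 4.76 over all arrays. Of 13 microglia and macrophage markers 0 passed (mean 5.55 to 5.66 against 5.53 to 5.74), and the largest difference was that of Ctss, at -0.26. Of 11 endothelial and pericyte markers 1 rose, the pericyte gene Rgs5 (1.29-fold), and that call was lost when its probe sets were averaged (adjusted p = 0.252) and without Sox2-positive pool 4 (0.0571). The 1 red blood cell marker measured, Slc4a1, did not pass. Astrocyte markers rose for 7 of 12 genes with 0 lower, among them Slc1a3 (4.46-fold), Apoe (2.79-fold), Aqp4 (2.63-fold) and S100b (2.35-fold), and their mean was 6.80 to 7.37 against 6.12 to 6.23. Of 12 neuron markers 3 fell and 1 rose, with Stmn2 falling by 0.94, Rbfox3 by 0.73 and Tubb3 by 0.62 on the log2 scale and Gad1 1.35-fold higher. Tubb3 lost its call when Sox2-negative pool 2 or 3 was left out, or Sox2-positive pool 1, 2 or 4 (adjusted p = 0.0598 to 0.0863). Gad1 lost its call when Sox2-negative pool 1 or 3 was left out, or Sox2-positive pool 2, 3 or 4 (0.0691 to 0.0981). With Sox2-negative pool 3 left out, 2 neuron markers were called. Both group means were below 5.80 for 7 of 13 microglia, 7 of 11 endothelial and pericyte and 5 of 7 Schwann cell markers. The same held for 6 of 12 neuron markers, 2 of 12 astrocyte markers and Slc4a1. At such dim values a difference may be understated, so a marker that did not pass is not shown to be equal. The part of these other cell types in the differences of the myelin genes was not tested.

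Across the whole series, Sox2 was 3.13-fold higher in the fraction sorted for its reporter (limma adjusted p = 2.53e-05), in the direction of the labels. In all, 1879 of 22180 genes passed, 1321 higher and 558 lower, or 1282 and 847 after quantile normalization. The genes called lower numbered 309 with Sox2-positive pool 2 left out, 361 with Sox2-positive pool 4 left out and 357 with Sox2-negative pool 1 left out. Arrays of one fraction correlated at 0.973 to 0.987 and those of different fractions at 0.942 to 0.968.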

How the data were processed

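Affymetrix arrays were used to measure RNA in 4 Sox2-positive and 4 Sox2-negative samples, each a pool of 3 tumours. The authors deposited log2 values, 1 per probe set and array, made by RMA in Affymetrix Expression Console (version 1.2.0.20), per the submitters' processing notes. That the scale is log2 was judged from the range of the values (2.51 to 13.6). RMA compresses differences of dim genes. The number of arrays limits the precision.

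Of 41345 probe sets, 23521 had 1 gene symbol in the platform annotation, 1814 had several and 16010 were unnamed here. Only those with 1 symbol were used, and the brightest per gene over all arrays was kept, which gave 22180 genes. Of the probe sets with 1 symbol, 23328 matched a RefSeq gene by Entrez identifier. No filter on dim genes was applied. The genome build of the probe design is not given in the sources used here. Promoters are RefSeq sequences of GRCm38.p6.

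The test was limma's (version 3.58.1, R 4.3.3; lmFit, eBayes, group as the only term), two-sided, with Benjamini-Hochberg adjustment over all genes and a threshold of 0.05. The p-values measure the spread between pools. Deviations from the group means correlated at 0.114 to 0.241 between arrays of equal number and at -0.284 to 0.161 between others, over all genes. Each Sox2-positive array correlated most with the Sox2-negative array of its own number. Sox2-negative array 2 correlated more with Sox2-positive array 3 (0.161) than with array 2 (0.114). The ranges overlap, so they do not settle whether equal numbers share tumours, and the labels do not say. The main test did not pair the pools. The replicate block was an alternative.

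Alternatives were the replicate block, leaving out each array, quantile normalization, the mean of probe sets, a variance trend, robust eBayes, array weights and leaving out genes whose higher group mean was below 5.80. The genes named were the 9 members, 6 measured genes taken in every case (Sox2, Sox10, Myrf, Opalin, Enpp6, Bcas1), up to 4 genes per list with the largest difference past the test (the largest where none passed) and the 3 nearest patterns of each called member, 59 in all. The text names 8 list members beyond these, after their values were seen (Cntn2, St18, Chd7, Egr2, Pmp2, Casr, Rras2 and 9630013A20Rik). The members, lists and rules were chosen with earlier results of these data known.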

Additional observations from a re-analysis of the deposited data

Results flagged for a closer look

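In 6 of the 118 groups of 4 arrays examined for the 59 genes named, 1 array stood apart from the other 3 by Dixon's criterion, and chance flags about 1 in 20. Of the myelin genes this was Mag, at 5.04 in Sox2-negative pool 1 against 4.60 to 4.65 in the others, all dim values. Fa2h was at 8.41 in Sox2-positive pool 2 against 7.34 to 7.49. Degs1 was at 5.62 in Sox2-negative pool 1 against 5.94 to 5.95, and Car2 at 5.05 in the same array against 5.38 to 5.45. Pmp22 was at 6.18 in Sox2-negative pool 3 against 4.79 to 4.88. Olig2 was at 9.85 in Sox2-positive pool 3 against 9.02 to 9.15.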

How the results depend on the processing

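Cnp and Ugt8a kept direction and call in all 15 alternatives, and Mobp and Ermn stayed short of the test in all they were run in. With the replicate block the log2 differences were unchanged by construction, 2340 genes passed in place of 1879, the members past the test stayed at 4 and the call of none of the 59 genes changed (Mag 0.99, adjusted p = 0.0575; Mbp 0.0049; Cldn11 0.0043). Leaving out each array in turn, members past the test numbered 2 to 5, late members 0 to 3, endothelial and pericyte genes 0 to 1, neuron genes 2 to 5 and genes lower in Sox2-positive cells 309 (without Sox2-positive pool 2) to 591. The log2 differences then ranged from 1.20 to 1.96 for Cldn11, 0.53 to 1.27 for Mag, 0.45 to 0.74 for Mbp, -0.066 to 0.30 for Mog and -0.046 to 0.031 for Mal. With robust eBayes, late members past the test numbered 1, as Cldn11 (1.60) was lost (adjusted p = 0.0972). With quantile normalization 847 genes were lower, and Mal reversed to 0.000641. With the mean of probe sets, 0 endothelial and pericyte genes passed. Of 746 values of the other 50 genes named, 715 kept direction and side of the threshold, 31 lost the call and 0 reversed. Of the 8 genes named beyond the rule, 9630013A20Rik passed in 3 of 15 alternatives, the others kept their side of the threshold, and the uncalled Pmp2 and Rras2 changed sign in 1 alternative each. Leaving out dimmer genes removed Mag, Mal and Ermn from the test. The causes of these changes were not tested. Dim probe sets, a group mean below 5.80 in 26 of the 59 genes named, limit the folds.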
